A study of Homo sapiens with 2 samples.

Results

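The genes described are 8 long non-coding RNAs (lncRNAs) chosen by name: MALAT1, NEAT1, NORAD, OIP5-AS1, TUG1, KCNQ1OT1, H19 and MEG3. Their transcripts were found by matching the transcript identifiers of the deposited tables, without version, to the GENCODE v44 annotation of GRCh38, and were summed per gene. This gave 116 transcripts of 206696 listed, in 8 genes of 59026 matched. The study concerned the RNA methyltransferase METTL8, and its tables of transcript counts came from total RNA of HEK293 Flp-In T-Rex cells after removal of rRNA. These cells derive from HEK293, an established line of human embryonic kidney origin, with an added integration site for transgenes that tetracycline switches on. The cells were untreated and formed 1 group of 2 libraries, replicate 1 and replicate 2. The labels do not say whether these were separate cultures, so the spread between them may be technical.

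Long non-coding RNAs act as RNA rather than through a protein. Some build or populate nuclear bodies, as NEAT1 does for paraspeckles and MALAT1 for nuclear speckles, and others bind proteins or microRNAs in the cytoplasm, as NORAD and OIP5-AS1 do. A further class is imprinted, meaning that the copy from 1 parent is transcribed and the other is silent, and KCNQ1OT1, H19 and MEG3 belong to it.

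Replicate 1 held 25158962 estimated counts and replicate 2 held 27143860. An estimated count is the number of reads that RSEM, a counting program, assigned to a transcript. Divided by the size factor of its library, 0.945 for replicate 1 and 1.08 for replicate 2, it is called the normalised count. The 8 genes held 0.158% of the estimated counts in replicate 1 and 0.142% in replicate 2. MALAT1 alone made up 56.5% and 56.1% of that. The 7 members that GENCODE v44 classes as lncRNA genes held 6.31% and 5.09% of the counts of all 15572 lncRNA genes listed. TUG1 is the exception, since GENCODE v44 classes it as protein-coding.

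Of the 8 members, 6 had at least 100 normalised counts in both libraries, against 21.0% of all matched genes. The exceptions were H19 and MEG3. As the members were chosen as known RNAs, most of them for abundance, this count describes them and is no finding. Normalised counts serve to compare a gene with itself, but long RNAs give more fragments than short ones. Between genes, each transcript's normalised count was therefore divided by its GENCODE v44 length and summed, giving normalised counts per kb. In RNA from bulk cells, fewer cells that make an RNA and less of it per cell cannot be told apart.

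**Figure D1:**
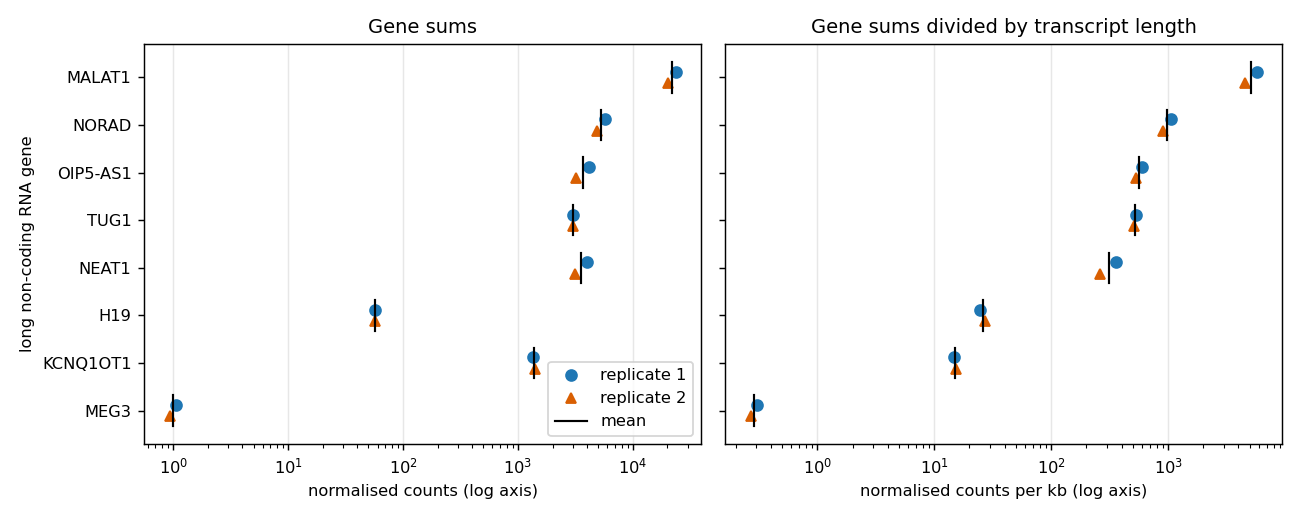
Normalised counts (left) and normalised counts per kb of transcript (right) of the 8 genes on log axes, with replicate 1 as circles, replicate 2 as triangles and the mean as a line. KCNQ1OT1 has 1383 normalised counts and H19 56.6, yet H19 is the higher of the pair per kb, at 25.9 against 15.1.

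MALAT1 had the highest level of the members. MALAT1 (ENSG00000251562) lies on the plus strand at chr11:65497640-65508073 and encodes a nuclear RNA concentrated at speckles, where splicing factors are stored. Its normalised counts were 23761 in replicate 1 and 20047 in replicate 2, with a mean of 21904 ± 2626 (SD, n = 2). Per kb this was 5774 and 4519, a mean of 5146 ± 887 (SD, n = 2), which ranked 322 of all matched genes and 7 among lncRNA genes. The 6 lncRNA genes above it per kb included SNHG29 with 9578 and SNHG16 with 8265, both hosts of small nucleolar RNAs. ENSG00000259001 was first with 74788, and its values of 38072 in replicate 1 and 111505 in replicate 2 differed more than those of any member. It encloses RPPH1, the RNA of ribonuclease P, on the same strand, so reads may have been shared out between both.

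NORAD was next. NORAD (ENSG00000260032, chr20:36045618-36051018, minus strand) is a cytoplasmic RNA known to sequester the Pumilio proteins, which repress mRNAs. Replicate 1 gave 5693 normalised counts and replicate 2 gave 4905, with a mean of 5299 ± 557 (SD, n = 2). Its mean per kb of 981 ± 103 (SD, n = 2) was above 96.3% of all matched genes. MALAT1 exceeded it per kb 5.48-fold in replicate 1 and 4.98-fold in replicate 2. With the length of the longest listed model or the union of exons, MALAT1 had 2099 per kb against the 981 of NORAD, a log2 ratio of 1.10 in place of 2.39.

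OIP5-AS1 and TUG1 followed at levels that could not be ordered. OIP5-AS1 (ENSG00000247556, chr15:41283958-41322392, plus strand) is the human counterpart of Cyrano, an RNA that triggers the decay of the microRNA miR-7. Normalised counts were 4153 and 3232 in the libraries. Per kb this was 595 and 534, a mean of 565 ± 42.8 (SD, n = 2). TUG1 (ENSG00000253352, chr22:30969245-30979395, plus strand) is an RNA with nuclear and cytoplasmic pools, named for taurine-induced expression in the retina. Its 3042 and 3006 normalised counts came to 536 and 510.4 per kb, with a mean of 523 ± 18.3 (SD, n = 2). The difference of these per-kb means, 41.4, was smaller than the sum of their SDs, 61.2.

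NEAT1 was lower per kb than its counts alone show. NEAT1 (ENSG00000245532, chr11:65422774-65445540, plus strand) is the scaffold RNA of paraspeckles and lies upstream of MALAT1 on the same strand. Replicate 1 gave 4011 normalised counts and replicate 2 gave 3107. Per kb it had 356 and 263, a mean of 309.9 ± 65.8 (SD, n = 2), above 88.8% of all matched genes. By counts NEAT1 was above TUG1 in both libraries, but by less than the sum of the SDs, and per kb TUG1 was 1.69-fold above NEAT1.

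The imprinted members were the lowest. H19 (ENSG00000130600, chr11:1995166-2004552, minus strand), an RNA made from the maternal copy in fetal tissues, had 56.5 normalised counts in replicate 1 and 56.8 in replicate 2. Per kb this was 24.5 and 27.3, a mean of 25.9 ± 1.96 (SD, n = 2). KCNQ1OT1 (ENSG00000269821, chr11:2597308-2700003, minus strand), a nuclear RNA made from the paternal copy that silences neighbouring genes, held 1357 and 1409 normalised counts. Spread over a model of 91667 nt, this was 14.8 and 15.4 per kb, a mean of 15.1 ± 0.404 (SD, n = 2). MEG3 (ENSG00000214548, chr14:100779410-100861031, plus strand), an RNA made from the maternal copy, was listed with 1 estimated count in either library. That is under the 3 counts that a listing at 0 would allow, so no fold was computed for it.

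Of the 28 pairs of members, 27 were ordered per kb, meaning that the order was equal in the libraries and the means lay further apart than the sum of their SDs. Among pairs of lncRNA genes whose mean reached 100 normalised counts this was so in 82.3%. That set is not matched to the members, as H19 and MEG3 are below 100 and TUG1 is not classed as a lncRNA gene. Without MEG3, 20 of 21 pairs were ordered. With MEG3 left aside, the largest step between neighbours in the order was from NEAT1 to H19, 11.96-fold on the means per kb. The others were 5.24-fold from MALAT1 to NORAD, 1.74-fold from NORAD to OIP5-AS1, 1.08-fold from OIP5-AS1 to TUG1, 1.69-fold from TUG1 to NEAT1 and 1.72-fold from H19 to KCNQ1OT1. Members of these pairs share libraries and annotation, so the 28 pairs are not independent.

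**Figure D2:**
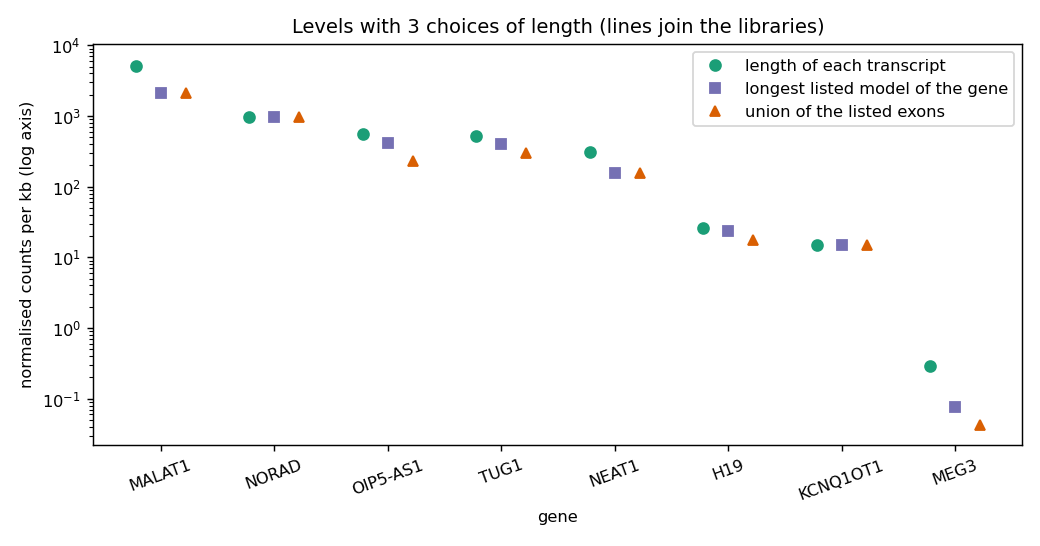
Normalised counts per kb (log axis) of each gene with 3 choices of length: each transcript's own length, the longest listed model and the union of listed exons. MALAT1 falls from 5146 to 2099 and NEAT1 from 309.9 to 157 with the longest model, while NORAD and KCNQ1OT1, with 1 listed model each, stay in place.

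The choice of length moved some levels by more than the spread between libraries. With the length of the longest listed model, MALAT1 had 2099 normalised counts per kb and was still the highest. One short model made most of that difference: MALAT1-213, of 424 nt, took 4.69% and 3.49% of the MALAT1 counts but 45.5% and 36.5% of its level per kb. OIP5-AS1 went from 565 to 416 with the longest model and to 232 with the union of exons. TUG1 went to 405 and 298 with the same choices, so that with the union TUG1 was the higher of this pair.

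None of the 6 members with at least 100 normalised counts in each library differed by more than 1.5-fold between them. Of all genes with such counts, 6.67% did. The log2 ratio of replicate 2 to replicate 1 was -0.37 for NEAT1, -0.36 for OIP5-AS1, -0.25 for MALAT1 and -0.21 for NORAD. It was -0.02 for TUG1 and 0.05 for KCNQ1OT1, so 5 of the 6 members tested were lower in replicate 2. Their median was -0.23, beside -0.10 for all 12377 genes tested and -0.00 for 599 lncRNA genes. Per 1000000 estimated counts the median of all genes was -0.02 and that of the members -0.15, with 4 of 6 below 0. H19, with too few counts for this comparison, had a log2 ratio of 0.01.

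How the counts were divided among transcript models differed between the members. Of the 116 listed transcripts, 69 were at 0 in both libraries and 12 in 1 library. A mean share of at least 5% of the gene was reached by 17 transcripts. Among members with several models and at least 100 normalised counts in both libraries, 4 of 4 had the same leading transcript in each library, beside 84.4% of all such genes. These 4 were MALAT1-202, NEAT1-202, OIP5-AS1-201 and TUG1-210.

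**Figure D3:**
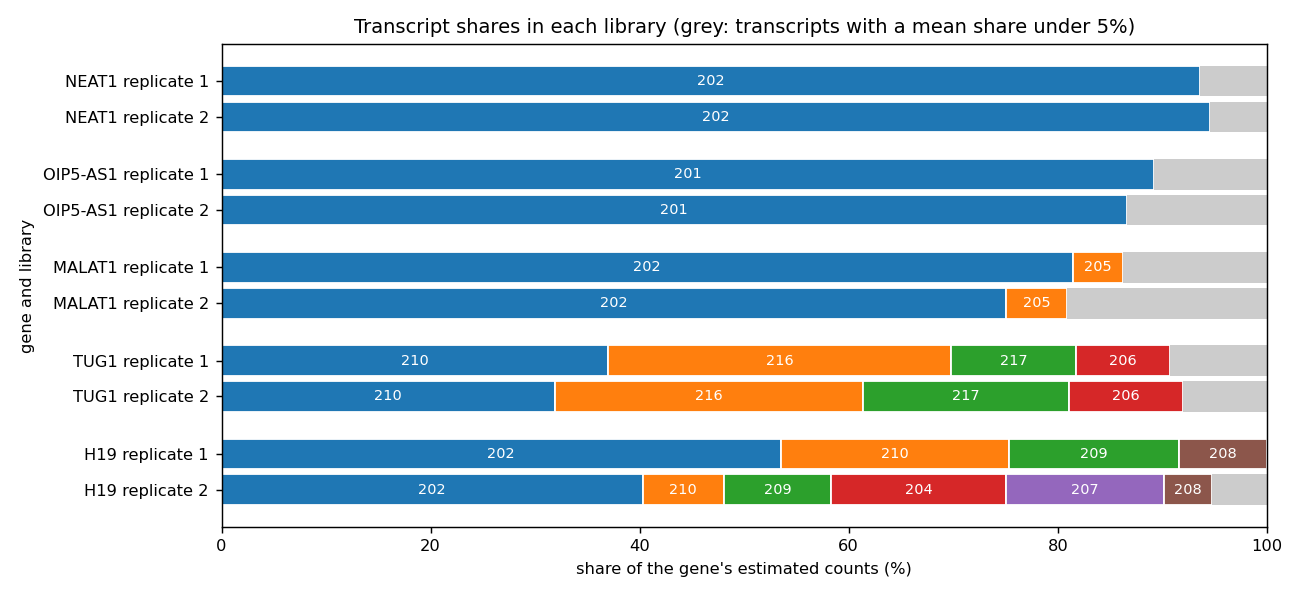
Share of each gene's estimated counts (%) held by each transcript in replicate 1 and replicate 2, with transcripts of a mean share under 5% in grey. NEAT1-202 fills 93.6% and 94.6% of its bars, whereas the TUG1 and H19 bars are split among 4 and 6 named models.

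MALAT1 counts lay mainly on 1 unspliced model. MALAT1-202 (ENST00000534336), of 10434 nt and 1 exon, took 81.5% in replicate 1 (95% exact interval 80.9 to 82.0%) and 75.1% in replicate 2 (74.5 to 75.6%), with a mean of 78.3% ± 4.52 (SD, n = 2). The 15 spliced models together took 18.5% and 24.9%. Per kb MALAT1-202 took 32.02% ± 0.147 of the gene (SD, n = 2), below the short MALAT1-213 with 41.0% ± 6.37. Together the 15 spliced models took 67.9% per kb in replicate 1 and 68.1% in replicate 2, above MALAT1-202. By counts, MALAT1-205 alone among the spliced models averaged 5% or more and took 4.76% and 5.83%. Of the 50-nt words of MALAT1-202, 29.5% were in no other listed model of the gene, so part of the division rests on the counting program. The listed version of this model differs from that in GENCODE v44.

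MALAT1 and NEAT1 end alike. Both RNAs are known to be cut before a tRNA-like RNA, leaving a 3′ end that folds into a triple helix of U-rich and A-rich stretches in place of a poly(A) tail. These stretches are shown because NEAT1-202 stops at that end, while the GENCODE v44 model MALAT1-202 runs past it. The 100 nt before the tRNA-like RNA of MALAT1 (chr11:65506017-65506116) and the last 100 nt of NEAT1-202 (chr11:65445441-65445540), both on the plus strand of GRCh38, are given with 3 words in capitals, TTTCTTTT, TTTGCTTTT and AAAGCAAAA, and the tRNA-like RNA (chr11:65506117-65506173) in lower case.
MALAT1 3′ end: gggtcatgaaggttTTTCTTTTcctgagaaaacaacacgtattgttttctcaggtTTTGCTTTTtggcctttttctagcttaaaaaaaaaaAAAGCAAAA
NEAT1 3′ end: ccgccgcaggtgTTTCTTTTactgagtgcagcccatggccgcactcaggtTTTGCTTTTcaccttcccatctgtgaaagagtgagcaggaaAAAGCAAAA
MALAT1 tRNA-like RNA: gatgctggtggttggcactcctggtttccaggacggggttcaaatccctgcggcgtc

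Read on the sense strand, all 3 words stand in both 100-nt stretches. In the last 100 nt of 27468 annotated lncRNA models of at least 1000 nt, the first word was in 2.52%, the second in 0.313% and the third in 0.499%. These words were taken from the 2 ends shown, and the only model of that set with all 3 is NEAT1-202 itself. MALAT1-202 runs on for 1957 nt from the start of the tRNA-like RNA. It was the only listed MALAT1 model to hold the unbroken 100 nt before it. The 5 models that end at or after the tRNA-like RNA took 92.3% of MALAT1 counts in replicate 1 and 90.2% in replicate 2. Of these, only MALAT1-202 holds the tRNA-like RNA in an exon, and the others splice over it. Counts on a model do not show that reads reach its 3′ end. The tRNA-like RNA has its own entry in the annotation (ENSG00000274072), which was listed at 0 in both libraries.

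NEAT1 counts lay almost wholly on the long model. NEAT1 makes a long RNA, needed to build paraspeckles, and a short polyadenylated RNA from the same start. NEAT1-202 (ENST00000501122), of 22743 nt and 1 exon, took 93.6% in replicate 1 (95% exact interval 92.8 to 94.4%) and 94.6% in replicate 2 (93.7 to 95.3%), a mean of 94.1% ± 0.661 (SD, n = 2). The 7 listed models under 10000 nt together took 6.38% and 5.45%. All 7 are spliced, and no unspliced short model was listed, so an unspliced short RNA had no model of its own to be counted on. Of the 50-nt words of NEAT1-202, 83.8% were in no other listed model of the gene.

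Within the short NEAT1 models the libraries differed. In replicate 1 NEAT1-208 held 118.9 normalised counts and in replicate 2 it was at 0, and NEAT1-207 held 30.1 and 67.2. NEAT1-206 was closer, with 61.4 and 72.8, and NEAT1-201 and NEAT1-203 were at 0 in both. Per kb the long model took 47.7% ± 1.93 (SD, n = 2) of the gene, since the short models are divided by smaller lengths. The 7 short models together took 53.7% per kb in replicate 1 and 50.9% in replicate 2, above the long model in both.

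**Figure D4:**
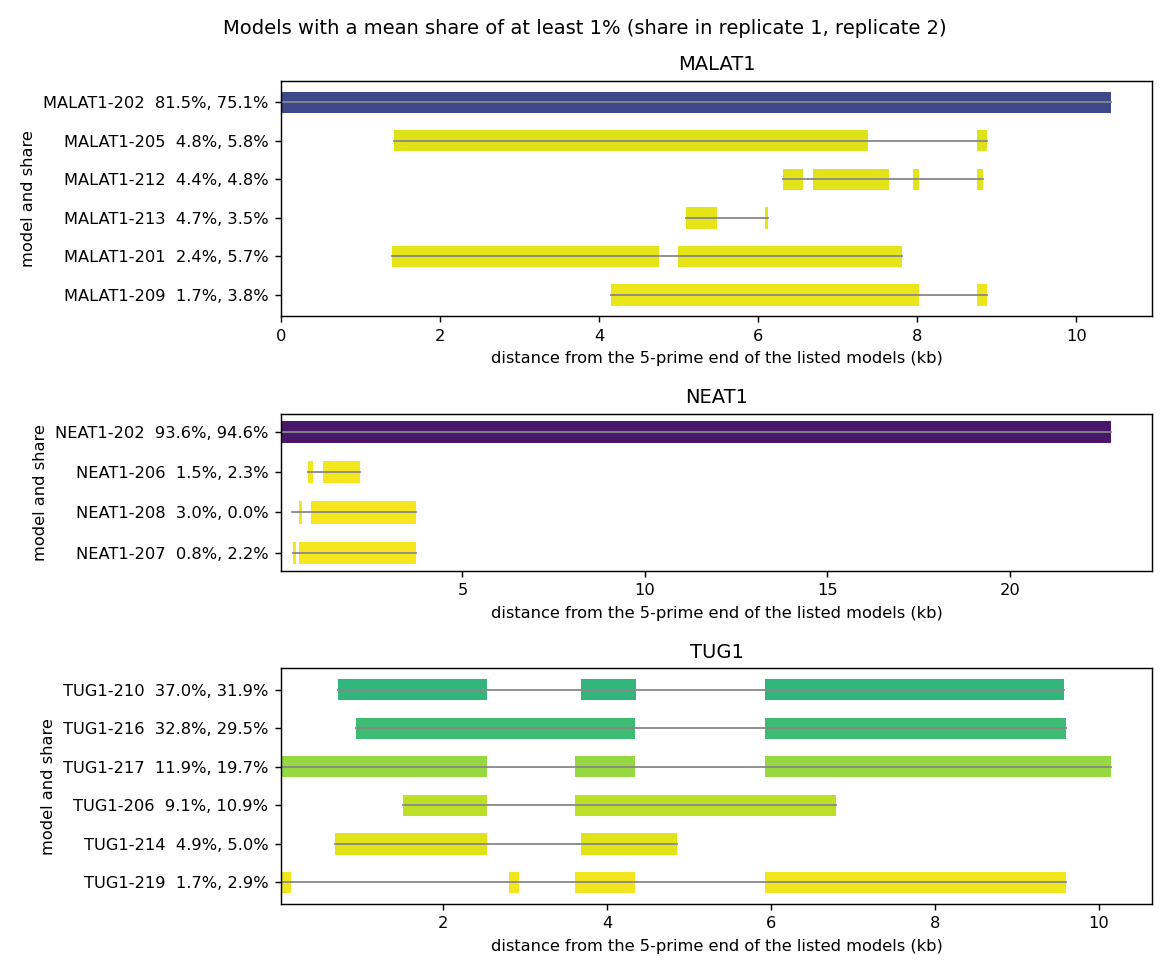
Exons (boxes) and introns (lines) of the models of MALAT1, NEAT1 and TUG1 with a mean share of at least 1%, by distance from the 5′ end of the listed models in kb, with the share in replicate 1 and replicate 2 beside each name and darker boxes for higher shares. Unspliced models lead MALAT1 and NEAT1, and TUG1-216 crosses the first intron of TUG1-210 and TUG1-217 without a break.

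Counts of the genes for paraspeckle and speckle proteins were set beside these RNAs. All 8 paraspeckle protein genes listed had at least 100 normalised counts in both libraries, with a median of 1532 per kb (466 to 11729). NONO, which with SFPQ forms the core protein pair of paraspeckles, had 22452 and 21116 normalised counts in the libraries. SFPQ held 5993 and 6029. RBM14, which joins paraspeckle subcomplexes, was the lowest per kb with 443 and 489. The NEAT1 mean of 309.9 per kb was below each of these 8 genes.

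TUG1 counts were spread over 4 models with a mean share of at least 5%. TUG1-210 took 37.0% in replicate 1 (95% exact interval 35.2 to 38.8%) and 31.9% in replicate 2 (30.3 to 33.5%), and TUG1-216 took 32.8% (31.1 to 34.6%) and 29.5% (27.9 to 31.1%). TUG1-210 was the higher of this pair in both libraries, with intervals that overlapped in replicate 2 but not in replicate 1. TUG1-217, the model annotated as protein-coding, took 11.9% (10.7 to 13.1%) and 19.7% (18.3 to 21.1%), and TUG1-206 took 9.08% and 10.9%. The share of TUG1-217 was thus higher in replicate 2 by more than counting error, and the cause was not tested.

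The models differ at the introns, and retained introns in TUG1 are known to keep the RNA in the nucleus. TUG1-216 keeps intron 1 of TUG1-217 whole (chr22:30971780-30972854, 1075 nt), and TUG1-206 keeps intron 2 (chr22:30973588-30975169, 1582 nt). The GENCODE v44 models that lead the gene are shown where exon 1 stops, on the plus strand, to let the junctions be compared. The last bases of exon 1 are in lower case and the bases that follow in each model in capitals.
TUG1-210: ccaaagtgaattatgCCTACAGACCTGGTA
TUG1-216: ccaaagtgaattatgGTACTTGCCATTTTC
TUG1-217: ccaaagtgaattatgTCCTGTGCCTCCTGA

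TUG1-216 runs straight into the intron, which opens with GT, while TUG1-210 and TUG1-217 join to different starts of exon 2. The model with intron 1 held 31.2% ± 2.34 of the TUG1 counts and the model with intron 2 held 10.0% ± 1.304 (SD, n = 2 each). TUG1-216 has 139 50-nt words of its own and TUG1-210 has none, so their shares rest on how the counting program divided shared reads. The model with intron 2 had 26.8% of its words to itself. MORC2, the neighbour of TUG1, held 1256 and 1314 normalised counts.

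NORAD has 1 exon and 1 listed model, NORAD-201 (ENST00000565493), of 5401 nt, so all of its counts lie there. It overlaps no other gene of GENCODE v44. Its known feature is a series of Pumilio response elements, here searched as TGTANATA on the sense strand. The 3 places where a pair of matches stands closest are shown, from the minus strand of GRCh38 at chr20:36049497-36049525, chr20:36048300-36048328 and chr20:36047664-36047692 in that order, with the matches in capitals.
NORAD pair 1: tatctgTGTATATAgTGTACATAaaggac
NORAD pair 2: ctatacTGTATATAtTGTATATAtaacgg
NORAD pair 3: gtgctgTGTATATAgTGTATATAagcgga

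NORAD-201 holds 15 matches, from base 819 to base 4657, and in each pair the starts are 9 nt apart. The reverse complement of the motif occurs 1 time. Of 27468 annotated lncRNA models of at least 1000 nt, 16.4% hold a match on the sense strand, and 0.0546% have as many per kb as NORAD-201, 2.78, or more. Among the 1463 models of 4000 to 7000 nt, 4 have as many matches, NORAD-201 included.

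**Figure D5:**
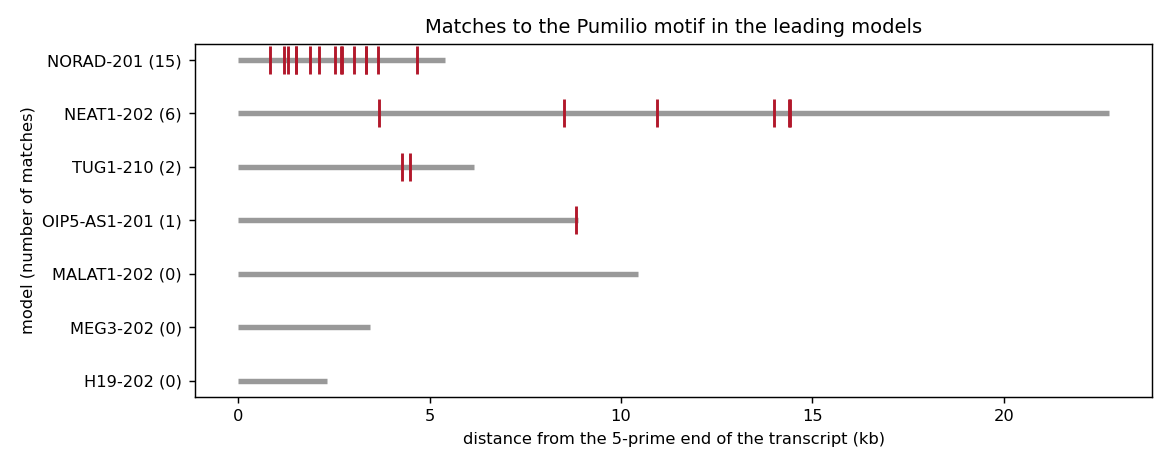
Positions of TGTANATA matches (red ticks) along the leading model of each gene (grey bars, distance from the 5′ end in kb), with the number of matches in brackets. NORAD-201 holds 15 matches in 5401 nt and NEAT1-202 holds 6 in 22743 nt, and KCNQ1OT1-201, with 9 in 91667 nt, is not drawn.

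Among the other members the motif was sparse. KCNQ1OT1-201 holds 9 matches in 91667 nt, NEAT1-202 6, TUG1-210 2 and OIP5-AS1-201 1. MALAT1-202, H19-202 and MEG3-202 hold none.

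Genes for protein partners of NORAD were measured beside it. PUM2, which encodes a Pumilio protein, had 1784 normalised counts in replicate 1 and 1172 in replicate 2. Per kb, its mean was 449 ± 151.7 (SD, n = 2), below that of NORAD at 981 ± 103. RBMX, which binds NORAD in the nucleus, held 9108 and 7104 normalised counts, and KHDRBS1, a further NORAD-binding protein gene, held 4625 and 4231.

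OIP5-AS1 counts lay mainly on OIP5-AS1-201 (ENST00000500949), of 8881 nt and 4 exons. It took 89.2% in replicate 1 (95% exact interval 88.2 to 90.2%) and 86.6% in replicate 2 (85.5 to 87.8%), a mean of 87.9% ± 1.82 (SD, n = 2). The other 9 listed models had mean shares below 5%, and 1 of them was at 0 in both libraries. None of the 10 has the same version in GENCODE v44.

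Exon 4 of OIP5-AS1-201 holds the site at which miR-7 is bound and then degraded, and it is shown with the microRNA because the pairing goes on beyond the seed. The site lies at chr15:41300574-41300599 on the plus strand of GRCh38, and miR-7-5p is from RefSeq. Capitals mark the seed (bases 2 to 8) in the microRNA and the bases able to pair in the site.
hsa-miR-7-5p: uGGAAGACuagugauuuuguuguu
OIP5-AS1 site: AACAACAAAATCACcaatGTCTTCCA

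The site pairs with the seed and the first base of the microRNA in a run of 8. With the 3′ part of the microRNA it pairs in a run of 14. Between the runs lie 4 bases of the site and fewer of the microRNA. OIP5-AS1-201 holds 3 matches to the miR-7 seed in all, and 14.9% of lncRNA models of at least 1000 nt hold at least 1. That set is not matched to OIP5-AS1-201 in length. Among the leading models of the other members, KCNQ1OT1-201 holds 6 seed matches in 91667 nt, MEG3-202 holds 1 and the rest hold none. The 3 models with the long site took 93.7% of the OIP5-AS1 counts in replicate 1 and 91.3% in replicate 2. ELAVL1, the gene of an RNA-binding protein that binds this RNA, held 3512 and 3389 normalised counts. OIP5, encoded on the opposite strand and overlapping OIP5-AS1, held 309.8 and 245.6 normalised counts, with a mean per kb of 233 ± 40.5 (SD, n = 2) beside 565 ± 42.8 for OIP5-AS1. Of the listed OIP5-AS1 models, only OIP5-AS1-202 reaches the span of OIP5, and it took 1.83% and 1.78% of the OIP5-AS1 counts. As the strand setting is not known, reads from that overlap can belong to either gene, so both levels are uncertain to that extent.

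H19 rested on 53.4 estimated counts in replicate 1 and 61.2 in replicate 2, so its division among models is imprecise. H19-202 (ENST00000412788), of 2309 nt and 5 exons, took 53.5% in replicate 1 (95% exact interval 40.4 to 68.4%) and 40.3% in replicate 2 (28.6 to 54.3%). H19-210 took 21.9% and 7.77%, and H19-209 took 16.2% and 10.3%. H19-204 and H19-207 were at 0 in replicate 1 and took 16.7% and 15.2% in replicate 2. The listed version of 11 of the 12 models differs from GENCODE v44.

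H19 is the host of miR-675, whose hairpin lies in exon 1 of H19-202 at chr11:1996759-1996831. Its mature RNAs are given from RefSeq, with the seeds in capitals, because the models without the hairpin took counts in replicate 2 alone.
hsa-miR-675-5p: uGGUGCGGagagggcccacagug
hsa-miR-675-3p: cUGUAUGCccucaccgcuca

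Of the 12 listed H19 models, 9 hold the hairpin, and these took 100% of the H19 counts in replicate 1 (95% exact interval 93.3 to 100%) and 79.6% in replicate 2 (68.2 to 89.4%). The intervals do not overlap, but they cover counting error only and the difference amounts to 12.5 estimated counts. The hairpin's own entry, MIR675, was listed at 0 in both libraries.

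KCNQ1OT1 has 1 listed model, KCNQ1OT1-201 (ENST00000597346), unspliced and 91667 nt long, of 14 models in GENCODE v44. It lies within KCNQ1, a potassium channel gene on the opposite strand, with 61.4 and 85.8 normalised counts in the libraries. Between this pair, KCNQ1OT1 was the higher by counts and the lower per kb, with a mean per kb of 15.1 ± 0.404 against 23.96 ± 4.18 (SD, n = 2 each). Reads from KCNQ1 introns and from KCNQ1OT1 cannot be told apart where strand was not used in counting, and the strand setting is not known.

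Of 10 genes of the 11p15 imprinted region, in which H19 and KCNQ1OT1 lie, 5 had at least 100 normalised counts in both libraries. These were CD81 with 3086 and 3476, NAP1L4 with 3346 and 2989, MRPL23 with 1244 and 1434, TSSC4 with 346 and 437, and CDKN1C with 145 and 223. CDKN1C is a cell-cycle inhibitor expressed from the maternal copy, under the control of the KCNQ1OT1 domain. IGF2, the paternally expressed growth factor that shares an imprinting centre with H19, held 56.7 and 74.5, beside 56.5 and 56.8 for H19. Per kb the mean of IGF2 was 14.3 ± 2.74, below the 25.9 ± 1.96 of H19 (SD, n = 2 each). SLC22A18 held 67.8 and 105.7 normalised counts. The placental genes PHLDA2 and ASCL2 were near 0, with 0 and 4.69 for PHLDA2 and 2.12 and 0.927 for ASCL2.

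MEG3 was at the limit of detection, and the genes of its region were low as well. Of its 48 listed models, 47 were at 0 in both libraries, and MEG3-202 held the 1 estimated count of each. None of the 5 genes listed from the 14q32 imprinted region had 100 normalised counts. DLK1, the paternally expressed growth regulator beside MEG3, held 1.06 in replicate 1 and 0 in replicate 2, and RTL1 and MEG8 were at 0 in both. MEG9 held 0 and 0.927. DIO3, a deiodinase that inactivates thyroid hormone, was the highest of the 5, with 6.35 and 8.35.

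In GENCODE v44, 32 genes overlap a member, and the mean of 5 of these reached 10 normalised counts. Besides KCNQ1 and OIP5 these were NUSAP1, on the strand of OIP5-AS1, with 4542 and 3402, and a pair of genes within TUG1. NUSAP1 starts at chr15:41320794, beyond the end of every listed OIP5-AS1 model, so it overlaps only models that were not listed. ENSG00000269987, antisense to TUG1 and not separable from it without strand, held 63.4 and 79.4, and ENSG00000276965, on the strand of TUG1, held 0 and 29.5. TALAM1, antisense to MALAT1, was the only one of the 32 without a listed transcript, so its reads had no entry of their own.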

How the data were processed

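Total RNA of HEK293 Flp-In T-Rex cells had been depleted of rRNA and made into TruSeq libraries per the labels. The deposited tables gave estimated counts per transcript, made by the authors with RSEM. They also gave a normalised signal, for which the authors had scaled each library's counts by a size factor. FastQC, STAR 2.7.0d, RSEM 1.3.3 and R 3.6.3 stand in the submitters' processing notes, and the study names GRCh38 and Ensembl release 104 for its sequencing reads. The strand setting is not given in the sources used here.

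Matching to GENCODE v44 ignored version numbers and placed 202217 of 206696 transcripts. Of the 116 member transcripts, 38 have another version there, so their lengths, exons and sequences may differ from the models counted. Per-kb values use these lengths with no effective length correction. Values are means ± SD over 2 libraries of 1 group, so no test between groups was made and no p-value is given. Shares have exact (Clopper-Pearson) 95% intervals, which cover counting error only. The 50-nt words of each model were compared with all listed models of its gene. Genes named were the members with their transcripts of at least 5% mean share, fixed lists of partners and neighbours, lncRNA genes with the highest levels per kb, and overlapping genes with a mean of at least 10. Some genes of that rule are not reported here, and other models and genes were picked for the text with their values known. The members and lists were chosen with earlier results of these data known. Alternatives changed lengths, transcript filters, minimum sums, scaling and libraries. Counting steps were tested on simulated data. Python 3.11.15, pandas 2.3.3, numpy 2.4.6, scipy 1.17.1 and matplotlib 3.10.9 were used. Sequences of transcripts came from GENCODE v44 and the microRNAs from RefSeq (GRCh38.p14). The tables of METTL8 transcripts alone were not used.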

Additional observations from a re-analysis of the deposited data

How the results depend on the processing

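With 2 libraries, leaving out either one moves every mean by less than 1 SD, so those 26 alternatives say nothing about stability, and no pair can be ordered from 1 library. Of the other 66, 36 kept a value within the spread or a call, and 26 moved a value by more. Without length normalisation the log2 ratio of H19 to KCNQ1OT1 went from 0.78 to -4.61, an order reversed, and that of TUG1 to NEAT1 from 0.76 to -0.24, a pair then no longer ordered. Ordered pairs numbered 25 without length, 27 with the longest model, 28 with the union of exons and 27 with transcripts at 1 or more normalised counts in both libraries. With that last filter OIP5-AS1 and TUG1 became ordered (log2 ratio 0.15) and H19 and KCNQ1OT1 were no longer ordered (0.41). With the union of exons the log2 ratio of OIP5-AS1 to TUG1 was -0.36. The long NEAT1 model held 47.7% per kb. The same leading transcript was found in 81.9% of genes at a sum of at least 10 and in 88.1% at 1000. Genes past 1.5-fold made up 14.03% at a sum of at least 10 and 7.25% with totals without misc_RNA, ribozyme and snRNA. Only transcripts with the same version could not be used for NORAD and OIP5-AS1, which have none, and left H19 at 0. Depth limits H19 and MEG3 most, with totals of 53.4 and 61.2 estimated counts for H19 and 1 for MEG3 in each library.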

Other observations

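Further gene lists tied to these RNAs were measured as background and entered no comparison. All 5 nuclear speckle protein genes had at least 100 normalised counts in both libraries, with a median of 2194 per kb (513 to 6299). RNPS1, a splicing activator, was the highest with 6064 per kb in replicate 1 and 6534 in replicate 2, beside 5774 and 4519 for MALAT1. SON, a core speckle protein gene, had 14523 in replicate 1 and 14376 in replicate 2 as normalised counts. SRRM2, which with SON organises speckles, held 8723 and 12241. The 3 genes of the repressive complex PRC2 all passed 100 normalised counts: EZH2 held 1772 and 1539, SUZ12 1961 and 1366, and EED 445 and 338. Of 6 genes for the upkeep of imprints, 5 passed. TRIM28 held 13365 and 16811, DNMT1 4476 and 5067, UHRF1 3605 and 3750, CTCF 2053 and 1714, and ZNF445 1469 and 1526. ZFP57, a zinc finger gene of the same role, was listed at 0 in both libraries.

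The total of H19 was nearly equal in the libraries, at 56.5 and 56.8 normalised counts, while its models with a retained intron took 8.39% in replicate 1 (95% exact interval 2.09 to 18.2%) and 19.7% in replicate 2 (10.6 to 31.8%). These intervals overlap.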
